A study of Mus musculus with 34 samples.

Results

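The 10 genes of cytokine signalling between glial cells followed here were the ligands Il1a, Il1b, Tnf, Tgfb1 and Il33, and the receptor chains Tgfbr1, Tgfbr2, Il10ra, Il10rb and Csf1r. They were chosen by symbol, and all 10 were found among the 23951 genes that each file lists. RNA was sequenced from the hippocampus of 20 male mice and from GFAP+ nuclei sorted from the cortex of 7 male mice aged 13 months, 1 library per mouse. The hippocampal control and Hdac1 cKO mice were labelled as 13 to 14 months old, and the 5XFAD and compound mice as 13 months old. The 4 control mice of the hippocampal set were titled WT. The paper names mice with floxed Hdac1 (Hdac1f/f) as controls of Hdac1 cKO mice in its staining, and calls the sequenced mice only controls. The 5 Hdac1 cKO mice were Hdac1f/f with Nestin-Cre, which deletes Hdac1 in neurons and astrocytes and leaves HDAC1 in microglia. The 6 5XFAD mice carried the 5XFAD transgenes of this Alzheimer's disease model, driven by the neuronal Thy1 promoter. The 5 compound mice were Hdac1f/f; Nestin-Cre; 5XFAD. The nuclei came from 3 control and 4 Hdac1 cKO mice, without 5XFAD.

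Microglia, the resident macrophages of the brain, depend on signals through CSF1R for survival and on TGF-beta for their mature state. IL-1 and TNF are released by activated microglia and act on astrocytes, whereas IL-33 is a nuclear alarmin of glial cells that is released on damage and read by microglia. IL-10 dampens inflammatory signalling through a receptor made of a ligand-binding chain, IL10RA, and a shared chain, IL10RB. TGF-beta binds TGFBR2, which then recruits and activates TGFBR1.

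Of the 10 members, 7 matched the RefSeq promoter table, the others being Csf1r, Il10ra and Il10rb. Promoters are shown for Tgfbr1 and Tgfbr2, the 2 chains of one receptor that were both higher with 5XFAD, and for the ligands Il33 and Il1b, which were higher in the same contrast. Each run holds the 250 bases before a RefSeq start site (build GRCm38.p6), 5′ to 3′ on the strand of the gene, at the more upstream start where RefSeq gives several. Capitals mark the GC box GGGCGG on either strand, the guanine-rich motif family that the study examined at promoters.
Tgfbr1, chr4:47352972-47353221, plus strand: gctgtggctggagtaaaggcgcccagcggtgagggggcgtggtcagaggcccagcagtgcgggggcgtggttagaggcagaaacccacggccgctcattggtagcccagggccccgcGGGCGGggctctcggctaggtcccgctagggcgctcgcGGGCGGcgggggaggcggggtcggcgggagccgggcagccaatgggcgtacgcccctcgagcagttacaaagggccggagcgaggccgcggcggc
Tgfbr2, chr9:116175364-116175613, minus strand: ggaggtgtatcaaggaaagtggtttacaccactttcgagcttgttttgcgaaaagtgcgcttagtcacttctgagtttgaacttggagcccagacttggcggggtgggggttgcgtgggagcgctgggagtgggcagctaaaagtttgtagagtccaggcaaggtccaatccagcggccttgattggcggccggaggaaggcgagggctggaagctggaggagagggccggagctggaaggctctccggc
Il33, chr19:29924863-29925112, plus strand: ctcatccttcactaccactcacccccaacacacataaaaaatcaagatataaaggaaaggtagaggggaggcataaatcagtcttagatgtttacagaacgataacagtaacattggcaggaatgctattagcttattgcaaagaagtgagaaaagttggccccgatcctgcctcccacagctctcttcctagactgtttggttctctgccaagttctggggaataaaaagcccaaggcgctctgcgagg
Il1b, chr2:129371140-129371389, minus strand: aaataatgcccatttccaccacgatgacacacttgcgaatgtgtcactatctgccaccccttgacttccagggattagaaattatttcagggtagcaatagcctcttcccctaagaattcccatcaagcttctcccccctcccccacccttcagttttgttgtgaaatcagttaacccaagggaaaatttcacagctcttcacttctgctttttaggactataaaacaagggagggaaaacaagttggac
The Tgfbr1 window had a GC content of 74.8% and 2 GC boxes, and the windows of Tgfbr2, Il33 and Il1b had none, at a GC content of 58.4%, 45.2% and 44.4%. Of the windows not shown, that of Tgfb1 had 5 GC boxes, that of Tnf 1 and that of Il1a none. Among 32851 RefSeq promoter windows of the same length, 32.7% held a GC box. None of these 4 windows held the sequences TGANTCA (AP-1), TTCNNNGAA (STAT) or GAGGAAGT (PU.1) on either strand, which occur in 6.75%, 7.02% and 2.44% of all windows.

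In the mm9 build of the files, Il1a lies at chr2:129125346-129135708 and Il1b at chr2:129190306-129196875, both on the minus strand and each overlapped by a gene model on the plus strand (Gm14023 and Gm14047). Tnf lies at chr17:35336326-35338952 on the minus strand, Tgfb1 at chr7:26472021-26490096 on the plus strand and Il33 at chr19:29999604-30035194 on the plus strand. Of the receptors, Tgfbr1 lies at chr4:47366094-47427803 and Il10rb at chr16:91406409-91426074 on the plus strand, and Tgfbr2 at chr9:115993415-116084383 and Il10ra at chr9:45061922-45077232 on the minus strand. The Il10rb model overlaps that of Ifnar2 on the same strand, and Csf1r overlaps Hmgxb3 on the other strand, so fragments of these pairs may not be fully separated.

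The labels were checked first. Hdac1 was 7.93 ± 2.20 FPKM (SD, n = 4) in control, 2.74 ± 0.279 (n = 5) in Hdac1 cKO, 8.23 ± 1.56 (n = 6) in 5XFAD and 1.92 ± 0.516 (n = 5) in compound mice, and Thy1, whose promoter drives the transgenes, was 308 ± 5.15 FPKM in control and 1801 ± 201 FPKM in 5XFAD mice. The steps between low FPKM values gave each library's depth relative to control 1 of its set, which lay between 0.754 and 2.35 for the hippocampus and between 0.869 and 1.26 for the nuclei. Summed FPKM of 6 choroid plexus markers ranged from 589 to 20446 in control, 59.8 to 1631 in Hdac1 cKO, 56.1 to 7993 in 5XFAD and 62.2 to 14049.7 in compound libraries, so libraries differed in how much of this tissue's RNA they held. No source used here states whether mice with and without 5XFAD were sequenced together, and a difference between such runs and the 5XFAD genotype cannot be told apart.

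Members rose with 5XFAD in the hippocampus, and none passed the test for loss of Hdac1. Averaged over both Hdac1 genotypes, 5 of the 7 members that passed the filter on low values were higher with 5XFAD. They were Csf1r, Tgfbr2, Tgfbr1, Il33 and Il1b, with log2 differences between 0.47 and 1.04 on the log2(FPKM + 1) scale (limma, adjusted p < 0.05 over 14389 genes). Of all genes tested in this contrast, 2.06% rose. Il10ra and Il10rb did not pass, and Il1a, Tnf and Tgfb1 were below the filter of a mean of 0.5 FPKM. Il1b passed that filter, at a mean of 0.545 FPKM over 20 mice, only through the 5XFAD mice, so that its call is not independent of the filter. Without it, 4 of 6 members rose. The median log2 difference was 0.57 over the 7 members and 0.52 without Il1b, beside -0.01 over all genes tested. In bulk tissue, more cells of a type and more RNA per cell cannot be told apart.

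**Figure D1:**
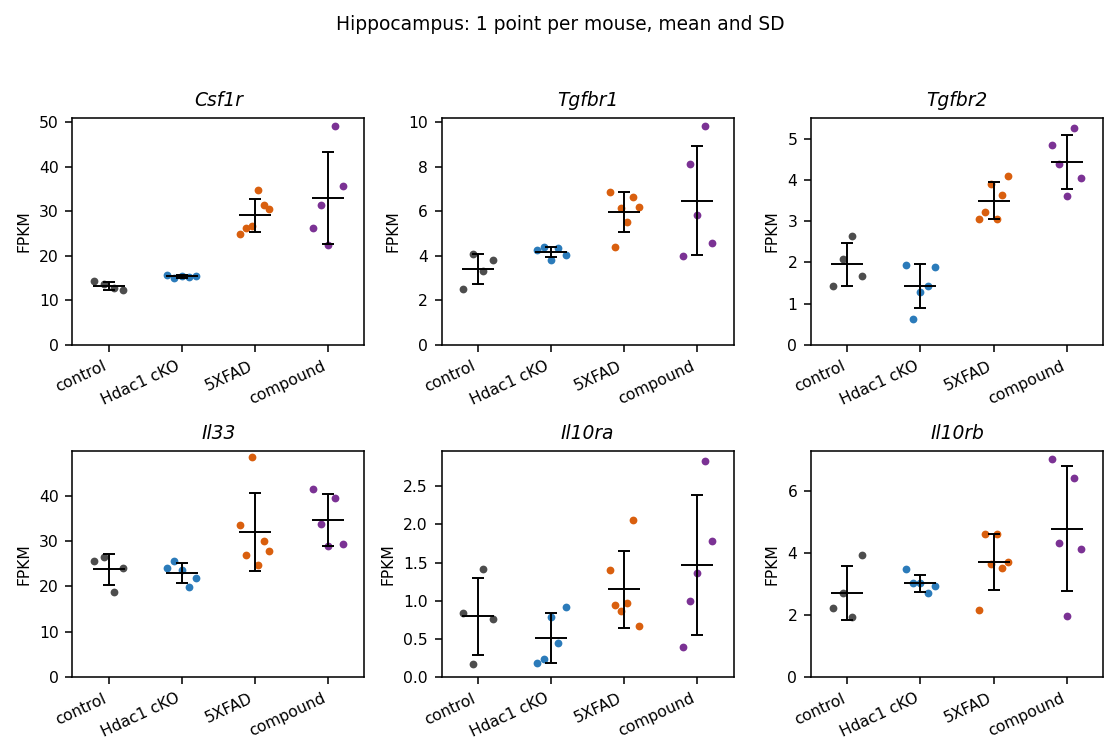
FPKM in the hippocampus of 6 members (y axis) in the 4 groups (x axis), 1 point per mouse, with the group mean and SD. All 11 mice with 5XFAD lie above all 9 mice without it for Csf1r and Tgfbr2, and the groups overlap for Il10ra and Il10rb. The share of all genes with such a split was not computed.

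Csf1r, the receptor for CSF1 and IL-34, was at 14.3, 13.5, 12.6 and 12.2 FPKM in the 4 control mice and at 15.7, 14.9, 15.4, 15.3 and 15.4 FPKM in the 5 mice lacking Hdac1. The 6 5XFAD mice ranged from 24.8 to 34.7 FPKM, and the compound mice were at 26.3, 31.3, 22.3, 49.1 and 35.6 FPKM. Every mouse with 5XFAD was above every mouse without it. The share of all genes with such a split of the 20 mice was not computed. Between pairs of groups it was 1.92% for 5XFAD above control and 2.44% for compound above Hdac1 cKO mice. The averaged 5XFAD effect on Csf1r was a log2 difference of 1.04 (SE 0.10, adjusted p = 5.02e-07 by limma), a 2.06-fold rise. Compound mouse 4 was the highest of all 20.

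Tgfbr2, the TGF-beta binding chain, was at 1.43, 2.08, 2.64 and 1.67 FPKM in control mice and at 1.94, 0.635, 1.27, 1.42 and 1.88 FPKM in Hdac1 cKO mice. It ranged from 3.05 to 4.11 FPKM in 5XFAD mice and was at 4.85, 4.41, 3.61, 5.28 and 4.06 FPKM in compound mice. Again no mouse with 5XFAD overlapped the mice without it, a split whose share over all genes was not computed. The averaged 5XFAD effect was 0.90 (SE 0.11, adjusted p = 1.72e-05 by limma), or 1.87-fold.

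Tgfbr1, the signalling partner of TGFBR2, was at 2.53, 4.07, 3.29 and 3.79 FPKM in control and between 3.83 and 4.37 FPKM in Hdac1 cKO mice. Values in 5XFAD mice ran from 4.40 to 6.88 FPKM, and compound mice were at 4.01, 8.15, 5.81, 9.83 and 4.59 FPKM. The compound group was the most spread, with mouse 1 inside the range of the mice without 5XFAD and mouse 4 well above it. Its averaged 5XFAD effect was 0.57 (SE 0.12, adjusted p = 0.0109 by limma), or 1.48-fold.

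Il33 was at 25.7, 26.5, 18.8 and 24.1 FPKM in control and between 19.8 and 25.6 FPKM in Hdac1 cKO mice. Among 5XFAD mice it ranged from 24.8 to 48.5 FPKM, the highest being mouse 3, and compound mice were at 41.6, 33.7, 29.0, 39.4 and 29.5 FPKM. All compound mice were above all mice without 5XFAD, whereas the 5XFAD and control groups overlapped. Of all genes, 2.75% separated compound above control mice and 2.44% compound above Hdac1 cKO mice. The averaged 5XFAD effect was 0.47 (SE 0.11, adjusted p = 0.0133 by limma), or 1.39-fold.

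Il10ra, the ligand-binding IL-10 receptor chain, had a group mean of 0.796 ± 0.508 FPKM (SD) in control, 0.512 ± 0.324 in Hdac1 cKO, 1.15 ± 0.505 in 5XFAD and 1.47 ± 0.915 FPKM in compound mice. Il10rb, the shared chain, had means of 2.71 ± 0.880, 3.02 ± 0.280, 3.71 ± 0.900 and 4.77 ± 2.01 FPKM in the same order. The groups overlapped for both genes. Their averaged 5XFAD effects were 0.47 (SE 0.17, adjusted p = 0.248 by limma) and 0.39 (SE 0.15, adjusted p = 0.272), and Il10rb passed only without compound mouse 3, at an adjusted p of 0.0357.

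The low members were described by the fragments behind their FPKM values. Each value, multiplied by the relative depth, was a whole multiple of a unit for the gene, and the smallest whole numbers that hold in all 20 libraries were taken as fragments. Fragments per library ranged from 0 to 10 for Il1b, 0 to 8 for Il1a, 0 to 5 for Tnf and 0 to 3 for Tgfb1, summing to 58, 53, 21 and 9 over the 20 libraries. Expression differences for these genes rest on few molecules.

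Il1b, the secreted pro-inflammatory form of IL-1, was listed at 0.273, 0, 0 and 0 FPKM in control mice and at 0.363, 0.170, 0.152, 0.146 and 0.116 FPKM in Hdac1 cKO mice. The 5XFAD mice were at 1.21, 1.46, 2.53, 0.178, 1.18 and 0.616 FPKM, and the compound mice at 0.859, 0.528, 0.362, 0.244 and 0.504 FPKM. In fragments, control libraries held 1 in all, Hdac1 cKO 6, 5XFAD 40 and compound 11. Of the 6 5XFAD mice, 5 held between 5 and 10 fragments, and mouse 4 held 1.

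Per unit of depth, 5XFAD libraries held 22.9 times the Il1b fragments of control libraries, with a 95% counting interval from 3.88 to 927 that covers counting error only. This ratio rests on 1 fragment in control mouse 1, and without that mouse the control libraries held 0 and gave no finite ratio. Compound libraries held 0.415 times those of 5XFAD libraries (interval from 0.192 to 0.825, again for counting error only). Over mice, the exact two-sided permutation test of Il1b between these 2 groups gave p = 0.0866, so a difference between the groups was not shown. The averaged 5XFAD effect on Il1b was 0.65 (SE 0.15, adjusted p = 0.0218 by limma), or 1.56-fold on a scale that understates changes of low genes. Without control mouse 2 the adjusted p was 0.0520, and without 5XFAD mouse 2 or 3 the mean of Il1b lay below the filter.

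Il1a, which is released from damaged cells, was listed at 0 in 3 of 4 control mice, and held 1 fragment in the control, 17 in the Hdac1 cKO, 18 in the 5XFAD and 17 in the compound libraries. Within each of the last 3 groups single mice ranged from 0 to at least 6 fragments, and each group overlapped the controls. Against control, exact two-sided permutation tests over mice gave p = 0.397 for Hdac1 cKO, p = 0.143 for 5XFAD and p = 0.0794 for compound mice (60 such tests were computed over the members and the 6 comparisons of groups).

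Tnf was above 0 in 7 of the 20 hippocampal libraries, 2 of them without and 5 with 5XFAD. Tgfb1 was above 0 in 5 libraries, 1 without and 4 with 5XFAD, and at 0 in all 5 Hdac1 cKO libraries. No group difference was detectable at this depth, with exact permutation p between 0.444 and 0.978 over the hippocampal comparisons of these 2 genes.

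**Figure D2:**
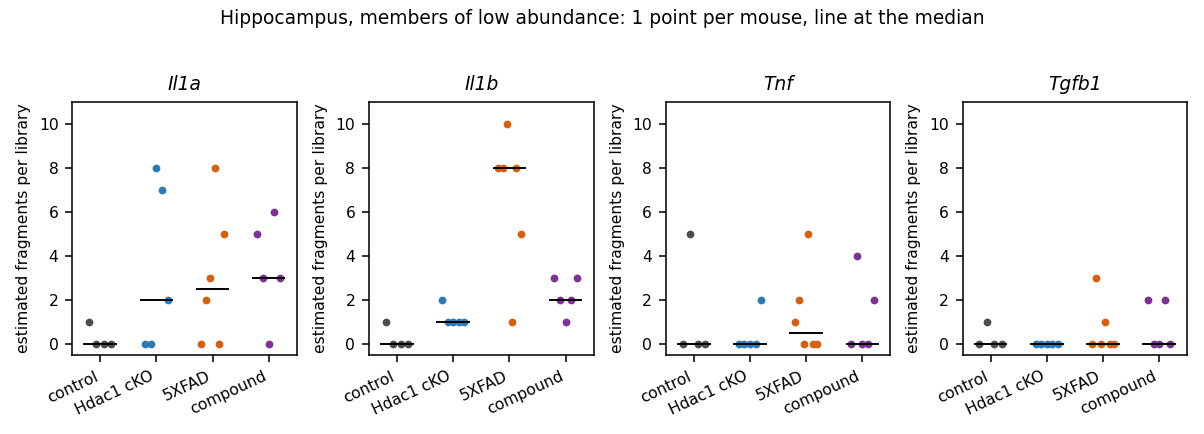
Estimated fragments per library (y axis) of the 4 members of low abundance in the 4 hippocampal groups (x axis), 1 point per mouse, with a line at the group median. The Il1b median was 8 fragments in 5XFAD and 2 in compound mice, against 0 in control and 1 in Hdac1 cKO mice.

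The groups were then compared one against another to place these effects. Against control, 5XFAD mice showed 1 of 7 tested members past an adjusted p of 0.05, Csf1r (log2 difference 1.08, SE 0.11, adjusted p = 0.000168 by limma), where 0.667% of all genes tested rose. By the study's own thresholds for differentially expressed genes, an unadjusted p below 0.05 with a change of 1.5-fold or more, 4 of 7 were higher (Csf1r, Il1b, Tgfbr1 and Tgfbr2), beside 1.72% of all genes. Il1b again passed the filter only through the 5XFAD mice, and without it 3 of 6 were higher. The groups did not overlap for Csf1r, Tgfbr1 and Tgfbr2, 3 of 7 members, beside 1.92% of all genes. Adjusted p-values by limma were 0.0688 for Tgfbr1, 0.115 for Tgfbr2 and 0.168 for Il1b, and Tgfbr1 passed without 5XFAD mouse 2 (adjusted p = 0.0449). Exact permutation tests gave p = 0.00952 for Csf1r, Tgfbr1 and Tgfbr2, the smallest that 4 against 6 mice can give.

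Compound mice against the same controls showed 2 of 6 tested members higher, Csf1r (log2 difference 1.21, SE 0.19, adjusted p = 0.0118 by limma) and Tgfbr2 (0.89, SE 0.17, adjusted p = 0.0375), beside 0.627% of all genes. With the thresholds for differentially expressed genes 3 of 6 were higher, now including Tgfbr1, beside 2.22%. The compound and control groups did not overlap for Csf1r, Tgfbr2 and Il33, 3 of 6 members, beside 2.75% of genes. Both calls were lost in alternatives, as with no filter on low values for Tgfbr2 (adjusted p = 0.0506). With single mice left out, Csf1r reached an adjusted p of 0.0502 without control 4, and Tgfbr2 between 0.0628 and 0.128 without control 1, 2 or 4 or compound 1, 2, 4 or 5. With the choroid plexus marker level as a covariate, an alternative chosen after seeing the data, the log2 differences were 1.05 for Csf1r (adjusted p = 0.246) and 1.11 for Tgfbr2 (adjusted p = 0.123).

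Compound mice against Hdac1 cKO mice, the 5XFAD effect in the absence of Hdac1 from neurons and astrocytes, showed 3 of 6 tested members higher, beside 1.42% of all genes. Tgfbr2 rose by 1.19 (SE 0.18, adjusted p = 0.00277 by limma), Csf1r by 1.01 (SE 0.16, adjusted p = 0.00571) and Il33 by 0.56 (SE 0.12, adjusted p = 0.0292). The same 3 genes did not overlap between the groups, beside 2.44% of all genes. Il33 passed narrowly: its adjusted p was between 0.0634 and 0.0839 without Hdac1 cKO 1, 3, 4 or 5 or compound 1, 2 or 4, and with all mice it was 0.0641 without limma's trend and robust options and 0.0567 with all 4 groups in one fit. By the thresholds for differentially expressed genes 3 of 6 were also higher, beside 2.94% of all genes, with Il10ra in place of Il33 (0.65, SE 0.26, adjusted p = 0.365).

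Loss of Hdac1 was compared with and without 5XFAD. In Hdac1 cKO against control hippocampus, limma called 0 of 6 tested members (0.154% of all genes were called in either direction), and 1 member, Csf1r, had an unadjusted p below 0.05, as did 11.7% of all genes. Its groups did not overlap, at 12.2 to 14.3 FPKM in control and 14.9 to 15.7 FPKM in Hdac1 cKO mice, and the same held for 2.08% of all genes in that direction. The log2 difference of Csf1r was 0.21 (95% confidence interval 0.01 to 0.40, adjusted p = 0.393 by limma). Of 16 microglia markers, 12 had a difference above 0 in this comparison, beside 49.8% of all genes. Their median was 0.10, and 0 were called. Tgfbr1 differed by 0.24 (interval -0.06 to 0.54), Tgfbr2 by -0.30 (-0.74 to 0.15) and Il33 by -0.04 (-0.30 to 0.21).

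Averaged over both 5XFAD genotypes, Hdac1 loss gave 0 of 7 members called by limma (0.0278% of all genes were called in either direction) and 0 at an unadjusted p below 0.05, beside 9.38% of all genes. The intervals bound what these 20 mice could miss: Csf1r differed by 0.17 (-0.04 to 0.38), Tgfbr2 by -0.01 (-0.25 to 0.22), Il33 by 0.05 (-0.17 to 0.27) and Il1b by -0.16 (-0.48 to 0.16). All 16 microglia markers had a difference above 0 here, beside 50.6% of all genes. Their median was 0.18, and 0 were called. Compound against 5XFAD mice likewise gave 0 of 7 called by limma (0.00698% of all genes were called in either direction) and 0 at an unadjusted p below 0.05, beside 6.61% of all genes. Tgfbr2 differed there by 0.27 (-0.00 to 0.55). Il1b, which passed the filter only through the 5XFAD mice, differed by -0.48 (-1.002 to 0.04), and without it the count is 0 of 6.

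Whether Hdac1 loss altered the 5XFAD effect was tested as an interaction over the 20 mice. None of the 7 members passed by limma (0% of 14389 genes were called), and 2 had an unadjusted p below 0.05, beside 8.97% of all genes. One of these was Il1b, which passed the filter only through the 5XFAD mice, so that its interaction is not independent of the filter, and without it the count is 1 of 6. The 5XFAD difference of Tgfbr2 was larger in the absence of Hdac1 by 0.57 (SE 0.23, unadjusted p = 0.0203, adjusted p = 0.473), and the interaction of Il1b was -0.64 (SE 0.31, unadjusted p = 0.0480, adjusted p = 0.549). For Csf1r the interaction was -0.07 (-0.50 to 0.35) and for Il33 0.17 (-0.27 to 0.61).

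**Figure D3:**
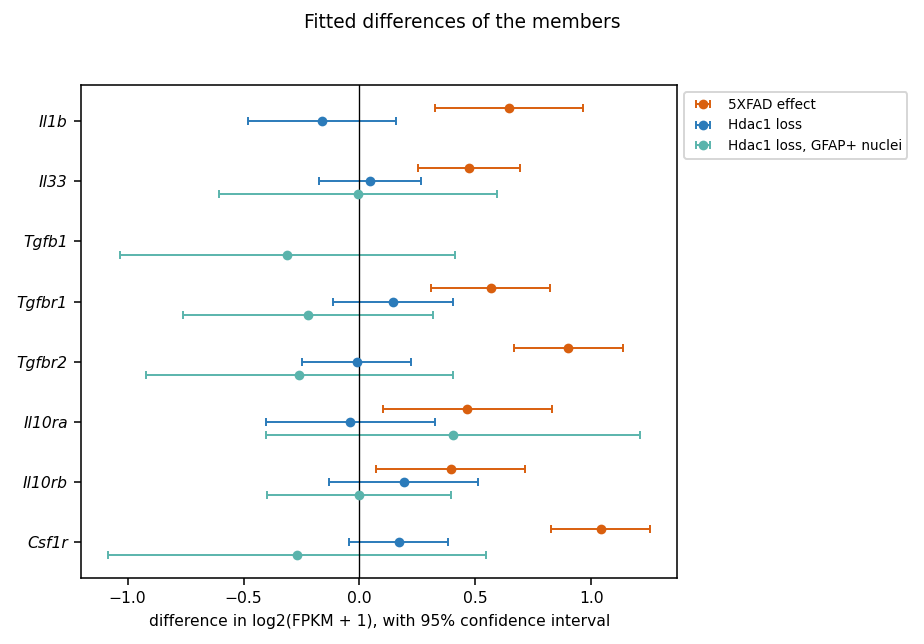
Differences in log2(FPKM + 1) with 95% confidence intervals (x axis) for the members tested (y axis): the 5XFAD effect averaged over both Hdac1 genotypes, Hdac1 loss averaged over both 5XFAD genotypes, and Hdac1 loss in GFAP+ nuclei. The 5XFAD intervals, which are not adjusted over genes, lie above 0 for 7 members, while each interval of Hdac1 loss spans 0. The 7 are 6 without Il1b, which passed the filter only through the 5XFAD mice. Of all genes, 11.9% had an unadjusted p below 0.05 by limma in the averaged 5XFAD effect, in either direction.

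Microglia markers moved with the same contrast. Of 16 markers, none of them a member, 11 rose in the averaged 5XFAD effect and all 16 had a log2 difference above 0, with a median of 0.98. Their summed FPKM ranged from 379 to 460 in control, 393 to 434 in Hdac1 cKO, 857 to 1123 in 5XFAD and 975 to 1937 in compound libraries, and no marker was at 0 in any of them. Compound mouse 4, which was the highest of its group for Csf1r, Tgfbr1, Tgfbr2 and Il10ra, also had the highest marker sum. This was not particular to microglia. The same library was the highest of its group for summed astrocyte (1659 FPKM), oligodendrocyte (2150 FPKM) and oligodendrocyte precursor markers (76.5 FPKM), and in relative depth (2.24). It was not the highest for neuronal, endothelial and mural, choroid plexus, or border macrophage, monocyte and lymphocyte markers. Of 12 astrocyte markers 3 rose (Gfap by 1.94, Aqp4 by 0.59 and S100b by 0.34), as did 1 of 8 oligodendrocyte markers, while 0 of 10 neuronal markers did. Choroid plexus markers differed by a median of -0.48 with none called, and 5 members remained called with their level as a covariate. In compound against control mice the median of these markers was -3.10, with 4 of 6 lower by the thresholds for differentially expressed genes. It was -3.21 in Hdac1 cKO against control and -2.43 in the averaged Hdac1 loss, each with 6 of 6 lower by these thresholds. None was called by adjusted p in these contrasts. The part of the microglia marker level in these results was not tested.

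Set against the microglia marker sum, Csf1r had a median of 3.24% of that sum in control, 3.66% in Hdac1 cKO, 3.09% in 5XFAD and 2.30% in compound mice. Tgfbr1 had medians of 0.850%, 1.03%, 0.589% and 0.508%, and Il33 of 6.19%, 5.57%, 3.04% and 2.79%. Tgfbr2 had medians of 0.471%, 0.341%, 0.367% and 0.347%. In the same order, Il10rb had medians of 0.590%, 0.715%, 0.370% and 0.331%, Il10ra of 0.199%, 0.108%, 0.104% and 0.131%, and Il1b of 0%, 0.0351%, 0.115% and 0.0353%. For Csf1r, Tgfbr1, Il33 and Il10rb the median was lower in each group with 5XFAD than in each group without it. For Il1b, which rests on few fragments, it was higher in 5XFAD mice than in each group without 5XFAD. The Il1b medians of compound and Hdac1 cKO mice were nearly equal (0.0353% and 0.0351%), and their ranges overlapped. Tgfbr2 and Il10ra were mixed. These ratios are descriptions of the libraries, with no test.

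**Figure D4:**
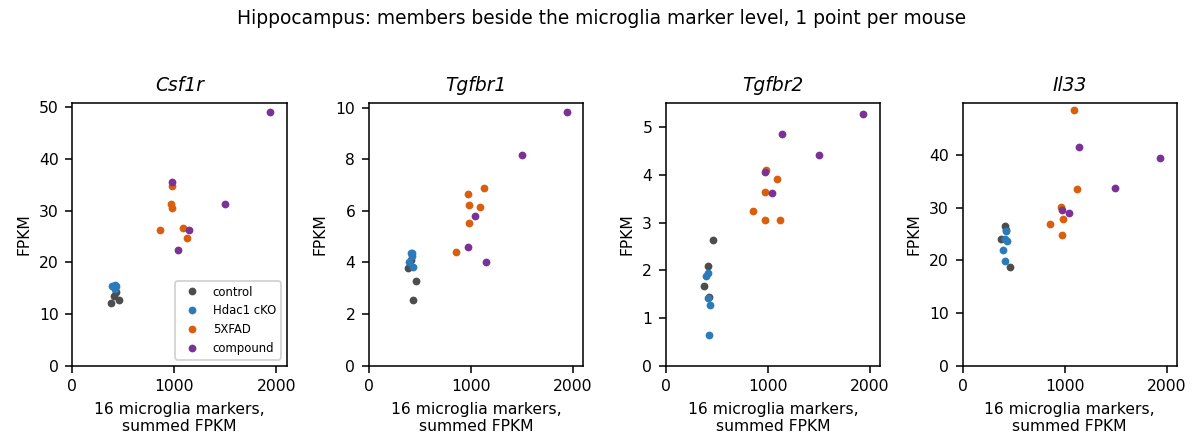
FPKM of 4 members (y axis) against the summed FPKM of 16 microglia markers (x axis) in the 20 hippocampal libraries, 1 point per mouse. Mice without 5XFAD lie at marker sums of 379 to 460 and mice with 5XFAD at 857 to 1937, with compound mouse 4 at the far right.

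For the 6 members with a mean of at least 1 FPKM, the genes most like each in pattern over the 20 hippocampal libraries were found. By Pearson correlation of log2(FPKM + 1) among 12995 genes, Csf1r was closest to Tyrobp, an adaptor of microglial receptors, and to C1qc, a complement subunit (r = 0.954 and 0.953). After each group was centred on its mean these values were 0.710 and 0.677. Tgfbr1 was closest to Olfml3 and Plek (0.878 and 0.867, or 0.744 and 0.730 centred), and Tgfbr2 to Samsn1 and Pdpn (0.9496 and 0.918, or 0.814 and 0.623 centred). For Il33 the closest were Hrsp12 and Apoc4 (0.879 and 0.841, or 0.765 and 0.614 centred). Apoc4 averaged 0 FPKM in control and 6.55 FPKM in 5XFAD mice, so its likeness is not independent of the limit of 1 FPKM. For Il10ra the closest were Lrig1 and Sf3a2 (0.836 and 0.773, or 0.753 and 0.732 centred), and for Il10rb Rab31 and S100a10 (0.766 and 0.765, or 0.708 and 0.666 centred). These libraries share the 5XFAD difference and were chosen as the nearest of many genes, so the values are descriptive.

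The partners of the members were counted in 6 pathway lists, to be read beside the 2.06% of all genes that rose in the averaged 5XFAD effect, with no test between lists. In the CSF list 8 of 11 tested genes rose in the averaged effect, with Csf1r among them: Tyrobp (log2 difference 2.17), the transcription factors Irf8 (1.19) and Spi1 (1.09), the ligand Csf1 (0.71) and others. Csf2rb of this list averaged 0.409 FPKM in mice without 5XFAD and 1.01 FPKM in mice with it. It passed the filter only through the mice with 5XFAD, so that its test is not independent of the filter. Csf1 went from 3.18 ± 0.449 FPKM in control to 6.28 ± 0.673 in 5XFAD mice (adjusted p = 0.00615 by limma), whereas Il34, the other CSF1R ligand, was at 8.07 ± 1.46 and 7.78 ± 1.39 FPKM (adjusted p = 0.936). The IL-1 family list had 3 of 13 higher, Il1b, Il33 and Pycard, the inflammasome adaptor (1.20, adjusted p = 0.000231 by limma), or 2 of 12 without Il1b, which passed the filter only through the 5XFAD mice.

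The TGF-beta list had 2 of 23 tested genes higher, and these were the members Tgfbr1 and Tgfbr2. The ligands Tgfb2 and Tgfb3 and the co-receptor Tgfbr3 differed by -0.08, -0.07 and -0.20 in the averaged 5XFAD effect, each with an adjusted p of at least 0.61 by limma. Among TNF genes 1 of 13 rose, the receptor Tnfrsf1a (0.97, adjusted p = 5.62e-05), and the second receptor Tnfrsf1b differed by 0.00 (adjusted p = 0.995). In the IL-10 list 1 of 6 rose, Stat3, which transmits the IL-10 signal (0.55, adjusted p = 0.000425), and Il10 itself was listed at 0 in all libraries but 1 control, at 0.556 FPKM. The IL-1 receptor genes Il1r1 and Il1rap and the IL-33 receptor Il1rl1 differed by 0.08, -0.14 and 0.03 and did not pass. Of 19 other cytokine genes 2 rose, Osmr (1.06) and Crlf2 (0.69). In the averaged Hdac1 loss no gene of these 6 lists passed by limma.

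GFAP+ nuclei were compared to see the members in sorted cortical nuclei, mainly of astrocytes. Gfap was 72.6 ± 18.2 FPKM (SD, n = 3) in control and 83.1 ± 7.84 (n = 4) in Hdac1 cKO nuclei, and the neuronal marker Rbfox3 was 16.04 ± 0.586 and 16.3 ± 0.674 FPKM. Hdac1 was 15.5 ± 6.25 FPKM in control and 8.95 ± 2.40 in Hdac1 cKO nuclei (log2 difference -0.70, adjusted p = 0.984 by limma), so that a loss of Hdac1 was not shown in these nuclei. Since full-length libraries of nuclei and 3′ libraries of tissue differ in kind, levels were not compared between them.

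Limma called 0 of 7 tested members in the nuclei (0.0133% of all genes were called in either direction), with 0 at an unadjusted p below 0.05, beside 4.7% of all genes. No member separated the groups, as 5.72% of all genes did. Csf1r was at 3.91, 11.04 and 7.59 FPKM in control and 3.33, 4.11, 8.17 and 8.50 FPKM in Hdac1 cKO nuclei, a difference of -0.27 (-1.08 to 0.55). Il33 was at 20.7, 19.8 and 10.04 FPKM in control and 11.9, 13.9, 19.4 and 20.4 FPKM in Hdac1 cKO nuclei (-0.01, -0.61 to 0.59). The libraries within a group thus differed by more than the group means did.

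Tgfbr1 had means of 10.9 and 9.27 FPKM (difference -0.22, -0.76 to 0.32), Tgfbr2 2.09 and 1.58 FPKM (-0.26, -0.92 to 0.40), and Il10rb 8.75 and 8.78 FPKM (-0.00, -0.40 to 0.40). Il10ra was at 0.222, 1.60 and 1.02 FPKM in control and 1.94, 0.501, 1.32 and 2.59 FPKM in Hdac1 cKO nuclei (0.40, -0.40 to 1.21). Tgfb1 was above 0 in all 7 nuclei libraries, at 0.451, 1.54 and 0.593 FPKM in control and 0.175, 0.201, 1.23 and 0.420 FPKM in Hdac1 cKO nuclei (-0.31, -1.04 to 0.41). Il1a was above 0 in 6 of 7 nuclei libraries, Il1b in 3 and Tnf in 1.

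Marker RNA of other cell types was found in the nuclei libraries. The nuclei had been stained for GFAP and the neuronal protein NeuN and sorted as GFAP+. Whether this RNA came from sorted nuclei of other cells was not tested. The 16 microglia markers summed to 102, 207 and 159 FPKM in the control nuclei libraries and to 69.2, 69.8, 184 and 193 FPKM in the Hdac1 cKO libraries, with at most 1 marker at 0 in a library. Summed oligodendrocyte markers ranged from 464 to 1294 FPKM over the 7 libraries, those of oligodendrocyte precursors from 68.2 to 186 FPKM, those of neurons from 219 to 317 FPKM and those of endothelial and mural cells from 170 to 244 FPKM. Choroid plexus markers summed to 17.6, 19.8 and 149.99 FPKM in control and to 175, 111, 268 and 214 FPKM in Hdac1 cKO nuclei, which overlap, with a median log2 difference of 0.67 over the 5 tested markers, 0 of them called by limma and 2 past the thresholds for differentially expressed genes. The 4 libraries with the highest Csf1r also had the 4 highest sums of the microglia, oligodendrocyte and precursor markers. The part of RNA from other cell types in the values of the other members was not tested. Hdac1 cKO library 4 was the highest of its group for Tgfbr1, Tgfbr2, Il10ra, Il10rb, Csf1r and Il33.

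**Figure D5:**
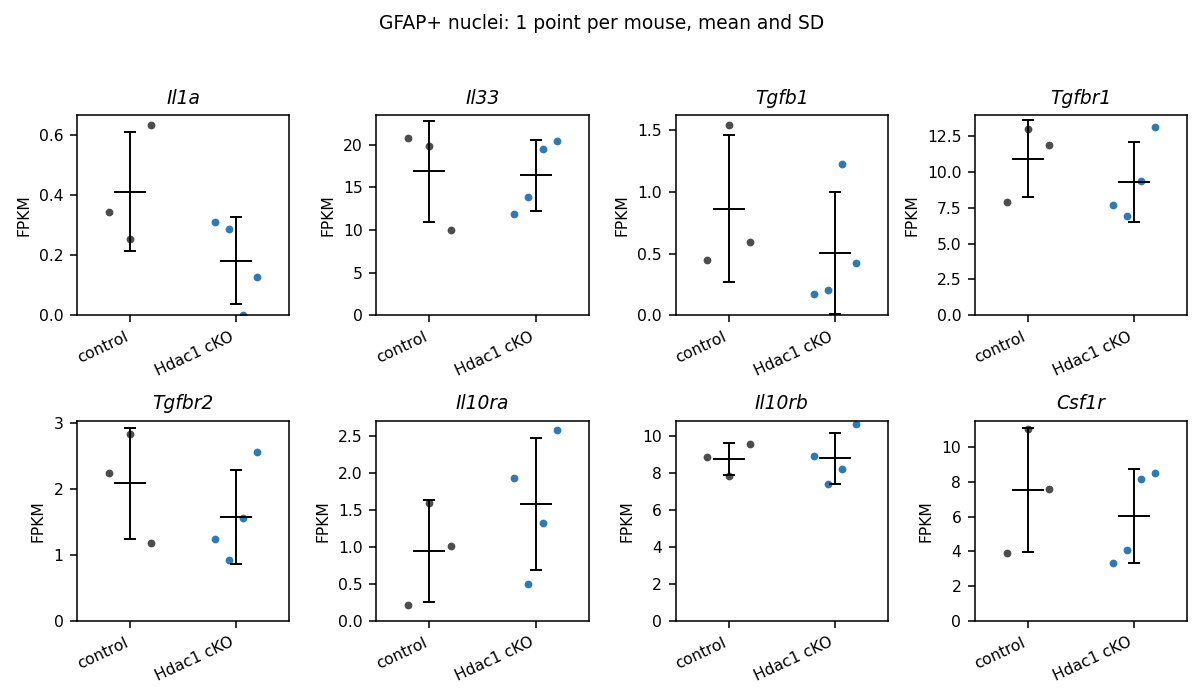
FPKM of 8 members (y axis) in GFAP+ nuclei of 3 control and 4 Hdac1 cKO mice (x axis), 1 point per mouse, with the mean and SD. Values of the groups overlap for all 8 members.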

How the data were processed

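FPKM values of 23951 genes were deposited by the authors in 27 files, 1 per mouse. For the hippocampus, 3′ Digital Gene Expression reads were aligned with Tophat2 to mm9 and quantified with Cufflinks (version 2.0.0 in the submitters' processing notes). The nuclei libraries were made with SMART-Seq v4, and their aligner is not given in the sources used here. FPKM already accounts for depth and transcript length, and on 3′ libraries the length term is a constant per gene. The other 7 samples, 1 of GFAP+ nuclei and 6 of ChIP-seq, were not analysed here.

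Groups came from the labels. Tests used log2(FPKM + 1) for each gene averaging 0.5 FPKM or more over the samples compared, with limma 3.58.1 (R 4.3.3, trend and robust) and Benjamini-Hochberg adjustment over all genes tested. Only the compared groups entered a pairwise fit, and the averaged effects and the interaction used all 20 hippocampal mice. "Rose" and "called" mean an adjusted p below 0.05. Single members were also compared with exact two-sided permutation tests (scipy 1.17.1, Python 3.11.15). Tested on simulated data with 200 genes changed by a log2 difference of 1.5, the fits recovered 77.5% of them in the nuclei and 99% for the averaged 5XFAD effect, with no wrong sign and with 14 and 8 false calls. The changed genes were drawn only from the more abundant genes, and the change was larger than any fitted for a member. These rates therefore do not give the power for the members.

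Depth and fragments were estimated from the steps between FPKM values up to 0.6, and a value counted as whole within 0.06. P-values measure the spread between mice. Named genes were the members, their receptor or ligand partners, genes checking labels and sorts, up to 4 further genes per pathway list with the smallest adjusted p in the averaged 5XFAD effect, and the 2 genes closest to each member. The members and lists were chosen with earlier results of these data known. The alternatives were another pseudocount, filter, normalization or variance model, one fit of all 4 groups, a replicate block, a choroid plexus covariate, the ratio of mean FPKM, and each mouse left out.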

Additional observations from a re-analysis of the deposited data

Results flagged for a closer look

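Among 48 sets of values of a member in a group of 4 to 6 mice, 7 had 1 library standing apart from the others. Chance gives about 1 in 20 sets for continuous values, a rate that does not apply to these sparse values, since in 5 of the 7 sets every other library is at 0 and any library above 0 then stands apart. All 7 concern members of low abundance, in which the library standing apart holds 1 to 5 fragments and the others 0 or 1. In control mice these were Il1a at 0.173 FPKM and Il1b at 0.273 FPKM in mouse 1, and Tnf at 0.499 FPKM and Tgfb1 at 0.0740 FPKM in mouse 2. In Hdac1 cKO mice they were Il1b at 0.363 FPKM in mouse 1 and Tnf at 0.186 FPKM in mouse 5. In 5XFAD mice it was Tgfb1 at 0.326 FPKM in mouse 2.

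Tgfbr2 and Il1b had an unadjusted p below 0.05 for limma's interaction of Hdac1 loss and 5XFAD, as did 8.97% of all genes. The interaction terms were 0.57 (adjusted p = 0.473 by limma) and -0.64 (adjusted p = 0.549 by limma) on the log2 scale. Neither passed adjustment over all genes, and Il1b passed the filter on low values only through the 5XFAD mice, so that its interaction is not independent of the filter.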

How the results depend on the processing

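No call of a member turned direction under any alternative, and 0 members were called under any alternative in the averaged Hdac1 loss, in the interaction, in Hdac1 cKO against control in either set and in compound against 5XFAD mice. The averaged 5XFAD effect called 4 to 6 members with each mouse left out, losing Il1b without control 2 or, where its mean then lay below the filter, without 5XFAD 2 or 3, and gaining Il10rb without compound 3. It called 4 with the filter at 1 FPKM, which Il1b missed, and 5 under the other alternatives. Compound against Hdac1 cKO called 2 or 3 under every alternative. For 5XFAD against control, the count of 1 member became 2 with all 4 hippocampal groups in one fit (Il1b, adjusted p = 0.0353, which passed the filter only through the 5XFAD mice) and ranged from 1 to 2 with each mouse left out. For compound against control, the count of 2 became 1 with no filter on low values (Tgfbr2, adjusted p = 0.0506), 0 with the choroid plexus covariate, and ranged from 0 to 2 with each mouse left out, the count being 0 without control 4. The cause was not tested.

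Mice with the same replicate number were different animals, and the correlations of their deviations lay between -0.113 and 0.0778, so the numbers did not pair them. With a replicate block the count for compound against control was 0 (log2 difference 1.17, adjusted p = 0.0880 for Csf1r, and 0.91, adjusted p = 0.228 for Tgfbr2), and Il33 in compound against Hdac1 cKO mice had an adjusted p of 0.0803. This Il33 call was also lost without the trend and robust options (0.0641) and with all 4 groups in one fit (0.0567). With no filter, the members below it had adjusted p-values of at least 0.237 in every comparison. Depth limits Il1a, Il1b, Tnf and Tgfb1, for which 1 fragment was worth up to 0.230, 0.362, 0.290 and 0.215 FPKM in the shallowest hippocampal library.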
